A study of Mus musculus with 6 samples.

Results

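The genes described here encode core proteins of the spliceosome and the SR proteins, the factors that remove introns from newly made RNA. They are the genes of the array whose symbols start with Snrp, Sf3a, Sf3b, Srsf or Prpf, or are Lsm1 to Lsm8, each taken from its brightest probe set that lists exactly 1 gene symbol, without Snrpn and pseudogenes. This gave 49 genes among the 19938 genes with a single-symbol probe set, and 66 probe sets in all. By role, 18 belong to the Sm and snRNP group (Snrp genes and Lsm1 to Lsm8), 9 to SF3, 10 to the SR proteins and 12 to the Prpf group. Snrpf shares its probe set with another symbol, and Srsf7 had no single-symbol probe set in the table used, so both were not analysed here.

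Levels were measured by microarray in 3 samples from mice homozygous for a Brwd1 mutation and 3 samples from wildtype mice, all on a B6/C3H background. Each sample was a pool of 100 oocytes at the germinal vesicle stage, from females 2 to 6 months old that had received 5 IU of equine chorionic gonadotropin 44 h earlier. Brwd1 codes for a bromodomain and WD-repeat protein. Neither the nature of the mutation nor the animals behind each pool are given in the labels, so the p-values rest on a spread between pools that may be technical in part or in whole.

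The spliceosome is built from small nuclear ribonucleoproteins (snRNPs), each a small nuclear RNA with its proteins. Sm proteins form a ring around the RNAs of U1, U2, U4 and U5, the related Lsm proteins form one on U6, the SF3 subunits hold U2 on the branch point of the intron, and many Prpf proteins belong to the U4/U6.U5 tri-snRNP. SR proteins bind exons and recruit this machinery. An oocyte makes and stores most of its transcripts while it grows, and transcription falls silent towards the end of the germinal vesicle stage.

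Promoters were available for 42 of the 49 genes from RefSeq (GRCm38.p6), and the 250 bases before each start were examined, because these genes share a housekeeping type of promoter that the choice of genes did not use. Those of Srsf3, Srsf6, Sf3a1 and Sf3b6, which the results below turn on, are shown as the 150 bases before the start, all on the plus strand. Capitals mark the motifs searched, on both strands, which were the CCAAT box (CCAAT), the GC box (GGGCGG), the TATA box (TATAAA), an ETS type motif (CCGGAAG) and the NRF1 palindrome.
Srsf3, chr17:29032510-29032659: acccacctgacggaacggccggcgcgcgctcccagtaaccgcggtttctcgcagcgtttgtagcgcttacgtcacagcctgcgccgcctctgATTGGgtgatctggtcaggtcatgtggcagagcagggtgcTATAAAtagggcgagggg
Srsf6, chr2:162931358-162931507: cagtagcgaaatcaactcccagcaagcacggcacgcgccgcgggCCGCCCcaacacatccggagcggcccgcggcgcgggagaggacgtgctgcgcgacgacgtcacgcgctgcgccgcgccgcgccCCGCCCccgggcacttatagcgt
Sf3a1, chr11:4160204-4160353: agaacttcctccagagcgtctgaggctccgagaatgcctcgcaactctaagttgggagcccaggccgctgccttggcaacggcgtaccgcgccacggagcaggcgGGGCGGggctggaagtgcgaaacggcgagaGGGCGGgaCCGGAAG
Sf3b6, chr12:4817458-4817607: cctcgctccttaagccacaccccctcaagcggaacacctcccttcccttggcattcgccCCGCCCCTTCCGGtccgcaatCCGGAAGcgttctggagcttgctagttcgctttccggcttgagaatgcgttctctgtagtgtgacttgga

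The Srsf3 window held a CCAAT box read on the other strand and a TATA box. Srsf6 held 2 GC boxes, Sf3a1 held 2 GC boxes and an ETS type motif, and Sf3b6 held a GC box that adjoins the first of 2 ETS type motifs. Over the 250 bases, 66.7% of the 42 promoters had a GC box, against 33% of all 27025 promoters in the table. The ETS type motif was in 35.7% of them and 7.07% of all promoters. A CCAAT box was as common in both, at 35.7% and 34.5%, and the TATA box was in 9.52% and 13%. The NRF1 palindrome was in 0 of 42 and in 0.777% of all promoters. The observed over expected ratio of CpG dinucleotides had a median of 0.858 in these promoters and 0.379 in all, and it exceeded 0.6 in 95.2% and 34.5%. The 27025 promoters were not matched to these genes by level. Whether the shares set these genes apart from other expressed genes was not tested. The shares describe these windows only, and a match is not evidence that a factor binds there.

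Brwd1 itself was checked first. It was at 4.41, 4.56 and 4.50 on the log2 scale in the mutant samples, against 8.91, 9.08 and 8.98 in the wildtype samples. Its log2 difference was -4.50 (SE 0.071; limma, Benjamini-Hochberg adjusted p = 2.2e-06), and the mutant mean lies at the background guide of 4.48, the 95th percentile of 1210 probe sets of olfactory and vomeronasal receptors. All 13 oocyte markers lay above that guide, with a log2 summed level of 14.90 to 14.93 in mutant and 14.87 to 14.89 in wildtype samples. Some markers of other cells also had a mutant or a wildtype mean above the guide, and either was enough for the counts given here. For granulosa and cumulus cells (9 of 13 above the guide) the sum was 10.10 to 10.22 in mutant and 9.89 to 10.10 in wildtype samples, for blood, immune and endothelial cells (8 of 13) it was 9.24 to 9.51 and 9.07 to 9.18, and for theca and stroma (3 of 8) 7.64 to 7.69 and 7.55 to 7.58. The sums take in every marker, also those under the guide, and the brightest weigh most in them. They are thus no measure of how many other cells were present. The part of other cells in the differences below was not tested. Pearson's r over all probe sets was 0.994 to 0.995 between samples of a genotype and 0.992 to 0.993 between genotypes.

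The spliceosome and SR protein transcripts were present in both genotypes at levels that differed little. Of the 49 genes, 48 lay above the background guide in both groups, the exception being Srsf12. In the test of mutant against wildtype over all 23410 probe sets with a symbol, 32 passed an adjusted p of 0.05 (limma, Benjamini-Hochberg), or 0.137%, with 9 higher and 23 lower, against 6 higher and 30 lower after median centring. That count fell to between 1 and 18 when any 1 sample was left out. None of the 49 genes passed in this test (limma, smallest adjusted p = 0.122), and 0 passed at an adjusted p of 0.1, which 0.325% of all probe sets did. At an unadjusted p under 0.05, limma gave 7 of the 49 genes, or 14.3%, which is near the 14.7% of all probe sets and under the 20.2% of the 11700 probe sets above the median level. Of the 7, 5 were lower and 2 higher in the mutant, where 7.4% of all probe sets were lower and 7.3% higher. Above the median level, where 48 of the 49 genes lie, 12.6% of probe sets were lower and 7.59% higher, so the 10.2% of these genes that were lower is under that share. With moderated variances fitted along the level (limma's trend and robust settings), 1 gene passed, Srsf3. Pools of oocytes do not tell fewer transcripts per oocyte apart from fewer oocytes with the transcript.

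The standard error of the difference had a median of 0.071 on the log2 scale. The 95% confidence interval of the limma fit lay within -0.5 and 0.5 for 46 of the 48 genes above the guide and within -1 and 1, which is 2-fold in either direction, for all 48. Over the brightest probe sets the lowest bound was -0.55, for Srsf3, and the highest 0.44, for Srsf6, while a second, dimmer probe set of Sf3b4 reached -0.86. The deposited values did not share one distribution. Their median was 4.71, 4.79 and 4.77 in the mutant samples and 4.71, 4.70 and 4.69 in the wildtype samples, and their 75th percentile 7.04 to 7.09 and 7.10 to 7.12, so the differences depend in part on how the arrays are scaled.

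Most of the small differences lay below 0, by a count that changed with the scaling. The median log2 difference of the 49 genes was -0.050, with 34 below 0 and 15 above, where the median was 0.010 over all probe sets and -0.027 over those above the median level. Differences below 0 made up 69.4% of these genes, 46.2% of all probe sets and 57.3% of those above the median level. Quantile normalization again gave a median of -0.024 with 21 of 49 above 0, cyclic loess -0.020 with 19 above 0, and median centring -0.11 with 7 above 0. The 3 samples of one genotype all lay apart from the 3 of the other for 2 genes that were higher and 11 that were lower in the mutant, or 26.5% of the 49, against 19.7% of all probe sets (9.66% lower, 10.1% higher) and 24.4% of those above the median level (15.4% lower, 9.03% higher). By role, the median was -0.038 for the Sm and snRNP group, -0.090 for SF3, -0.035 for SR proteins and -0.10 for Prpf. Without any 1 sample these medians ran from -0.047 to -0.014, from -0.11 to -0.035, from -0.059 to -0.023 and from -0.14 to -0.031. Single samples moved them by more than 1.5 times. The Prpf median was -0.031 without mutant 3, -0.063 without mutant 2 and -0.065 without wildtype 1, the SF3 median was -0.035 without wildtype 3 and -0.042 without mutant 1, the Sm and snRNP median was -0.014 without mutant 1 and -0.022 without wildtype 1, and the SR median was -0.059 without mutant 3. Each of these medians had a sign below 0 in every alternative, but 2 of them came close to 0. That of the SR proteins was -0.00028 after quantile normalization again, with 5 of 10 genes above 0, and -0.0076 after cyclic loess. The Sm and snRNP median was -0.0061 after cyclic loess, with 9 of 18 genes above 0. In these refits neither group leaned to either side.

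**Figure D1:**
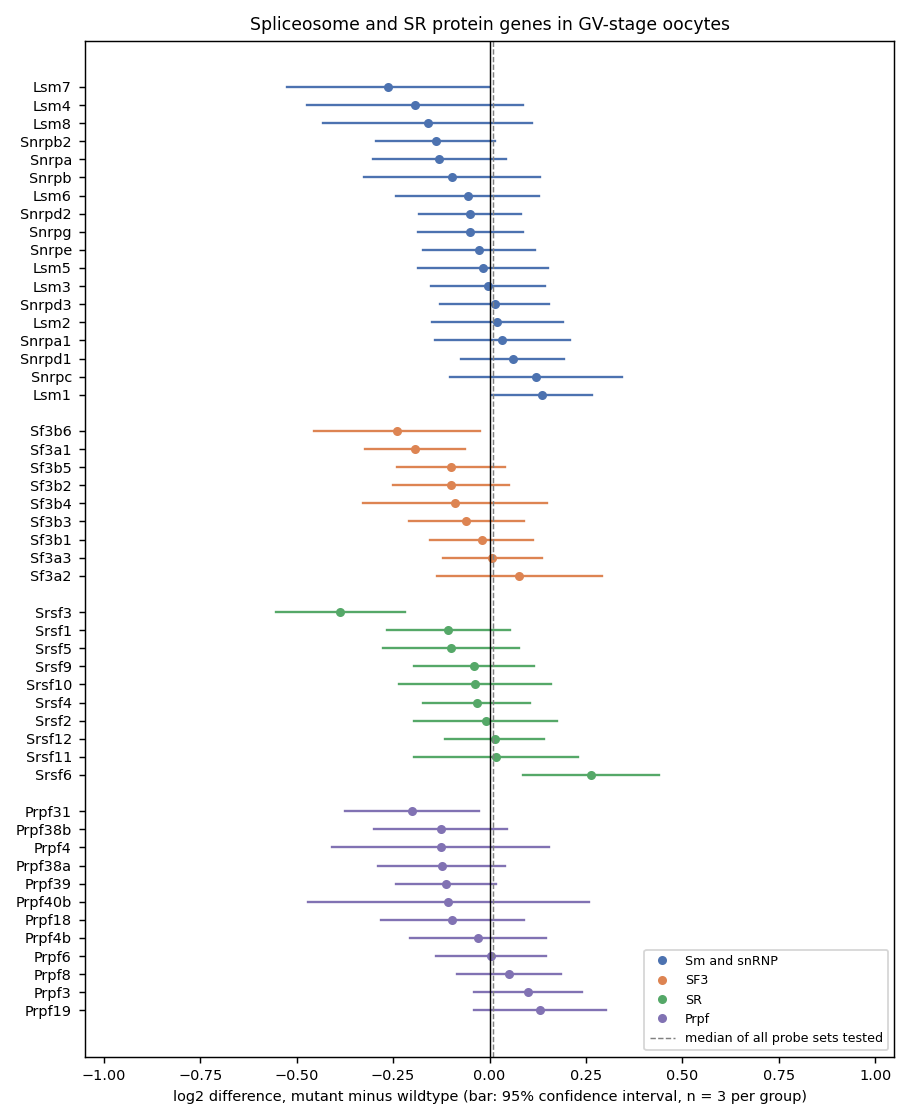
Log2 difference (mutant minus wildtype, horizontal axis) of the 49 genes, one row each and coloured by role, with points for the estimate and bars for the 95% confidence interval of the limma fit (n = 3 per group). Srsf3 at -0.39 and Srsf6 at 0.26 lie farthest out, and every bar stays within -1 and 1.

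Among the 10 SR proteins, the groups did not overlap for 2, Srsf3 (lower in the mutant) and Srsf6 (higher). That is 20% of the group, near the 19.7% of all probe sets and under the 24.4% of those above the median level. Srsf3 encodes a small SR protein that acts in splicing and in export of mRNA, and is known to be needed for mouse oocytes to resume meiosis. Its level was 9.58, 9.71 and 9.79 in the mutant samples, against 10.04, 10.10 and 10.10 in the wildtype samples. All 3 mutant values lay under the lowest wildtype value. The log2 difference was -0.39 (SE 0.070, 95% confidence interval -0.55 to -0.22, n = 3 per group), which puts the mutant at 76.5% of the wildtype level. It had the smallest p of the 49 genes, and did not pass over all probe sets (limma, adjusted p = 0.122). The adjusted p was 0.0476 with the trend and robust settings and ran up to 0.272 over the alternatives, while the difference stayed between -0.44 and -0.33.

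Srsf3 is listed on 2 further probe sets, and both gave the same direction and size. The next brightest had 9.43, 9.60 and 9.65 in the mutant and 9.88, 9.90 and 9.93 in the wildtype samples, a log2 difference of -0.34 (limma, adjusted p = 0.148). The dimmest had 6.11, 6.02 and 5.90 in the mutant and 6.29, 6.37 and 6.42 in the wildtype samples, a log2 difference of -0.35 (limma, adjusted p = 0.149). The groups did not overlap on any of the 3. The probe sets list the same RefSeq transcript and were read from the same samples, so they are no independent replicates, and RefSeq also lists a pseudogene, Srsf3-ps, whose signal may not be separable.

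Srsf6, an SR protein that regulates alternative exons, was the member with the largest positive difference. It was at 6.51, 6.68 and 6.57 in the mutant samples, against 6.22, 6.38 and 6.37 in the wildtype samples. The lowest mutant value lay above the highest wildtype value. The log2 difference was 0.26 (SE 0.074, 95% confidence interval 0.087 to 0.44), which puts the mutant at 120% of the wildtype level, and it did not pass (limma, adjusted p = 0.213). Srsf6 had an unadjusted p under 0.05 in all 16 refits, as Srsf3 and Sf3a1 did. The refits reuse the same samples, so they are not independent tests, and none of these genes passed in the main test.

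**Figure D2:**
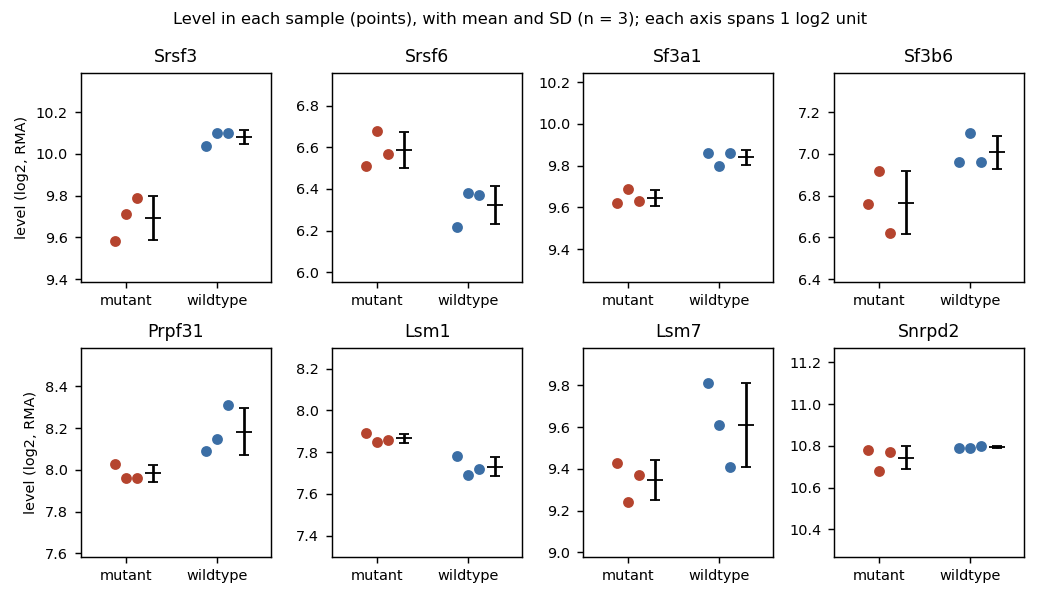
Log2 level (vertical axis, spanning 1 unit in each panel) of 8 genes in the 3 mutant samples (red, left) and the 3 wildtype samples (blue, right), with the group mean and SD. The groups do not overlap for Srsf3, Srsf6, Sf3a1, Sf3b6, Prpf31, Lsm1 and Snrpd2, while Lsm7 overlaps through mutant 1 at 9.43 and wildtype 3 at 9.41.

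On their brightest probe sets, the other 8 SR protein genes had log2 differences between -0.11 and 0.017, with overlapping groups in each. A second, dimmer probe set gave -0.13 for Srsf5, without overlap, and -0.13 for Srsf10, with overlap. Srsf1, the founding member of the family, was at 8.90, 8.85 and 9.0 in the mutant samples and at 8.95, 9.08 and 9.04 in the wildtype samples, a difference of -0.11 (limma, adjusted p = 0.506). Srsf2, a component of nuclear speckles also known as SC35, differed by -0.010, with a confidence interval of -0.19 to 0.17. Srsf10 had the brightest probe set of the group, with 10.07, 10.02 and 10.11 in the mutant and 9.98, 10.07 and 10.26 in the wildtype samples, and a difference of -0.037. Srsf12 had the dimmest, at 4.05, 4.03 and 4.0 in the mutant and 3.97, 4.03 and 4.04 in the wildtype samples. Both of its group means lie under the background guide, so a change in Srsf12 could not have been measured. Srsf4, Srsf5, Srsf9 and Srsf11 differed by -0.033, -0.10, -0.040 and 0.017.

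In the SF3 group, the subunits of the U2 snRNP that hold the branch point, all 6 SF3b subunits were below 0 and the SF3a subunits were mixed, where 57.3% of probe sets above the median level were below 0. Sf3b1 was above 0 after quantile normalization again (0.0072), after cyclic loess (0.013) and without mutant 3 (0.0033). Sf3a1, the subunit of SF3a that also contacts U1, was at 9.62, 9.69 and 9.63 in the mutant samples, against 9.86, 9.80 and 9.86 in the wildtype samples. The groups did not overlap and each was tight, with an SD of 0.038 in the mutant and 0.035 in the wildtype samples. The log2 difference was -0.19 (SE 0.055, 95% confidence interval -0.32 to -0.063; limma, adjusted p = 0.214). Its partners Sf3a2 and Sf3a3 differed by 0.077 and 0.0067.

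Sf3b6, the small subunit that sits next to the branch-point adenosine, had the lowest difference of the SF3 group. It was at 6.76, 6.92 and 6.62 in the mutant samples, against 6.96, 7.10 and 6.96 in the wildtype samples, without overlap. The log2 difference was -0.24 (SE 0.090, 95% confidence interval -0.45 to -0.025; limma, adjusted p = 0.293). Sf3b1, the large subunit that clamps the branch site, was at 10.14, 10.10 and 10.05 in the mutant and 10.08, 10.12 and 10.15 in the wildtype samples. Its difference of -0.020 had an interval of -0.15 to 0.11. Sf3b5, the brightest probe set of the group, was at 10.54, 10.43 and 10.54 in the mutant and 10.60, 10.58 and 10.63 in the wildtype samples, a difference of -0.10 (limma, adjusted p = 0.476) with no overlap. Sf3b2 and Sf3b3 were at -0.10 and -0.060.

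Sf3b4 was the one gene of the group with more than 1 probe set, and the 2 differed in size. The brightest had 8.71, 8.99 and 8.80 in the mutant and 8.86, 8.83 and 9.08 in the wildtype samples, a log2 difference of -0.090 (limma, adjusted p = 0.717). The other had 5.45, 5.31 and 4.88 in the mutant and 5.87, 5.70 and 5.50 in the wildtype samples, a difference of -0.48 (SE 0.16; limma, adjusted p = 0.265). The groups overlapped on the first and not on the second.

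**Figure D3:**
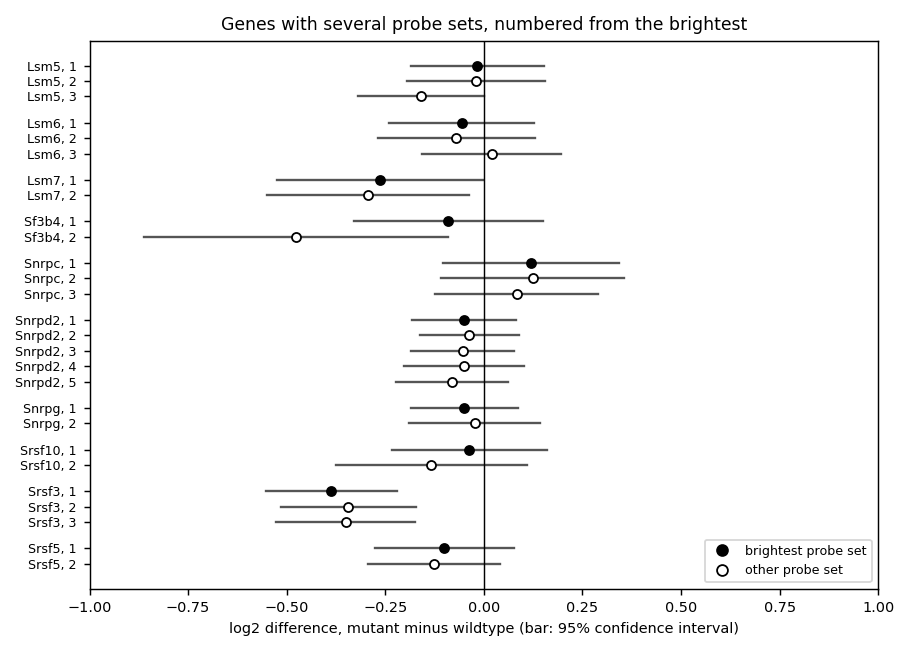
Log2 difference (mutant minus wildtype, horizontal axis) for each probe set of the 10 genes that have several, numbered from the brightest (filled points), with 95% confidence intervals. The 3 probe sets of Srsf3 lie between -0.39 and -0.34, the 5 of Snrpd2 between -0.080 and -0.037, and those of Sf3b4 at -0.090 and -0.48.

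In the Prpf group, 8 of 12 genes were below 0, or 66.7%, beside 57.3% of probe sets above the median level. The groups did not overlap for 3 of the 12 genes, or 25%, all lower. Above the median level, 15.4% of probe sets did not overlap and were lower, and 24.4% did not overlap in either direction. Prpf31, which joins the U4/U6 and U5 particles in the tri-snRNP, was at 8.03, 7.96 and 7.96 in the mutant samples, against 8.09, 8.15 and 8.31 in the wildtype samples. The log2 difference was -0.20 (SE 0.073, 95% confidence interval -0.37 to -0.026; limma, adjusted p = 0.286). The wildtype values spread more than the mutant values, with wildtype 3 the highest. Prpf38b was at 8.69, 8.66 and 8.49 in the mutant and 8.71, 8.71 and 8.80 in the wildtype samples, a difference of -0.13. Prpf39, a U1-associated protein with the dimmest probe set of the group by mean level, was at 5.27, 5.19 and 5.23 in the mutant and 5.37, 5.34 and 5.32 in the wildtype samples, a difference of -0.11 (limma, adjusted p = 0.392).

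Proteins of the catalytic core and of the tri-snRNP lay on both sides of 0. Prpf8, the U5 protein that forms the scaffold of the active site, had the brightest probe set of the group, with 10.13, 10.06 and 10.05 in the mutant and 9.99, 10.03 and 10.07 in the wildtype samples. Its log2 difference was 0.050 (95% confidence interval -0.084 to 0.18). Prpf6, which bridges U5 and U4/U6, differed by 0.0033 (95% confidence interval -0.14 to 0.15). Prpf3 and Prpf4, partners on U4/U6, were at 0.10 and -0.13, with overlapping groups. Prpf19, the ubiquitin ligase that gives the Prp19 complex its name, was at 7.58, 7.60 and 7.72 in the mutant and 7.51, 7.41 and 7.59 in the wildtype samples, a difference of 0.13 (limma, adjusted p = 0.452). Prpf40b had the widest interval of the group, -0.47 to 0.26, with mutant 3 at 4.94 and the other mutant samples at 5.45 and 5.41. Prpf18, Prpf38a and the kinase Prpf4b differed by -0.097, -0.12 and -0.030.

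The Sm ring genes lay close to 0. The 6 ring genes measured (Snrpb, Snrpd1, Snrpd2, Snrpd3, Snrpe and Snrpg) had log2 differences between -0.097 and 0.060, with a median of -0.038. Snrpd2 had the brightest probe set of the Sm and snRNP group, at 10.78, 10.68 and 10.77 in the mutant samples and 10.79, 10.79 and 10.80 in the wildtype samples. The groups did not overlap, but the difference was -0.050 (95% confidence interval -0.18 to 0.083; limma, adjusted p = 0.716). Its other 4 probe sets gave -0.080 to -0.037. Snrpd1 and Snrpd3 were at 0.060 and 0.013, and Snrpe and Snrpg at -0.027 and -0.050. Snrpb, with the dimmest probe set, was at 6.24, 6.21 and 6.28 in the mutant and 6.55, 6.24 and 6.23 in the wildtype samples, where wildtype 1 alone stood higher.

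Of the proteins specific to one particle, Snrpb2 of U2 was at 9.82, 9.78 and 9.69 in the mutant and 9.83, 9.93 and 9.95 in the wildtype samples, a log2 difference of -0.14 (limma, adjusted p = 0.378). Snrpa of U1 was at 9.09, 9.08 and 9.04 in the mutant and 9.16, 9.33 and 9.11 in the wildtype samples, a difference of -0.13 (limma, adjusted p = 0.453). Neither gene's groups overlapped, by a margin of 0.02 or less. Snrpc of U1 was at 0.12 and its 2 other probe sets at 0.12 and 0.083, and Snrpa1 of U2 was at 0.033, all with overlapping groups.

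The Lsm genes had a median log2 difference of -0.037, with 6 of 8 below 0, or 75%. Quantile normalization again and cyclic loess lowered that count. Probe sets above the median level had a median of -0.027, with 57.3% below 0. Lsm1 and Lsm8 are alternative subunits of the ring. Lsm1 gives the cytoplasmic form that acts in decapping of mRNA, and Lsm8 the nuclear form that binds U6. Lsm1 was at 7.89, 7.85 and 7.86 in the mutant samples, against 7.78, 7.69 and 7.72 in the wildtype samples, and the groups did not overlap. Its log2 difference was 0.14 (SE 0.055, 95% confidence interval 0.0064 to 0.27; limma, adjusted p = 0.317). Lsm8 was at 7.58, 7.60 and 7.20 in the mutant and 7.57, 7.68 and 7.61 in the wildtype samples, a difference of -0.16 (limma, adjusted p = 0.557). That difference was -0.030 without mutant 3. The difference between the 2 genes was not tested.

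Lsm7, a subunit of both rings, was at 9.43, 9.24 and 9.37 in the mutant samples, against 9.81, 9.61 and 9.41 in the wildtype samples. Its log2 difference was -0.26 (SE 0.11, 95% confidence interval -0.52 to -0.0019; limma, adjusted p = 0.336), and its other probe set gave -0.29. Mutant 1 lay just above wildtype 3. Lsm4 was at 7.29, 7.19 and 7.29 in the mutant and 7.30, 7.72 and 7.33 in the wildtype samples, a difference of -0.19, or -0.058 without wildtype 2. Its groups did not overlap, by 0.01. Lsm2, Lsm3, Lsm5 and Lsm6 differed by 0.020, -0.0033, -0.017 and -0.057. For Lsm5 the dimmest of 3 probe sets gave -0.16, and for Lsm6 the dimmest of 3 gave 0.020.

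**Figure D4:**
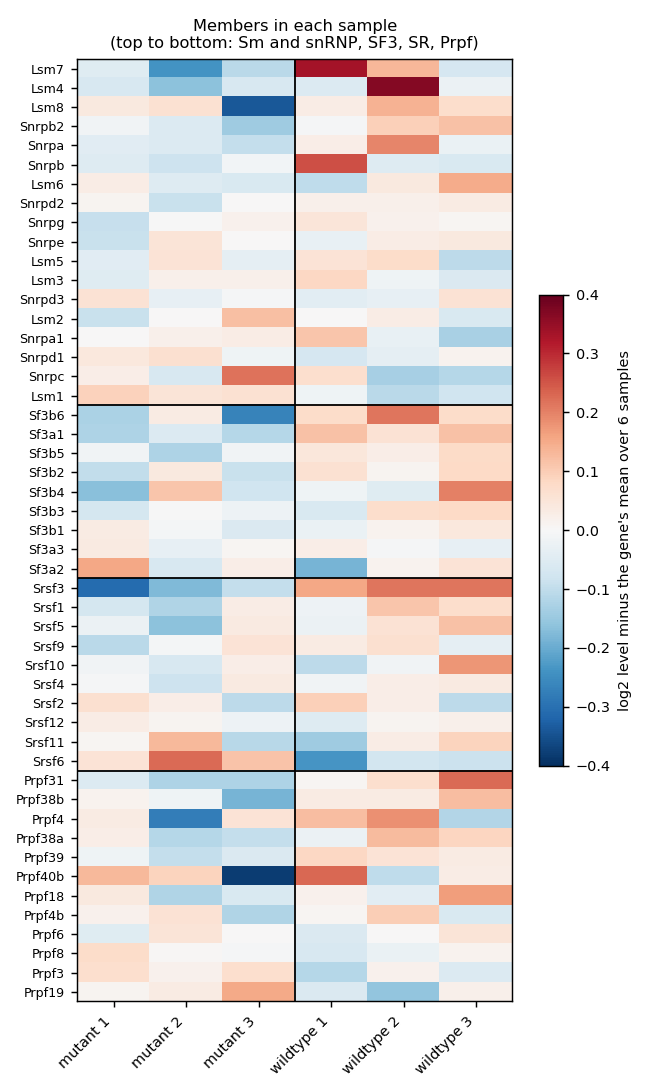
Log2 level of each of the 49 genes minus its mean over the 6 samples (colour, clipped at -0.4 and 0.4), with the mutant samples left of the line and the wildtype samples right of it, ordered within each role by the difference. Srsf3 is low in the mutant samples and Srsf6 high, and single samples stand out for Lsm8 and Prpf40b (mutant 3) and for Lsm4 (wildtype 2).

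Sample by sample, the shift of these genes was small. The median over the 49 genes of the deviation from each gene's own mean was -0.0033, -0.0067 and -0.017 in mutant 1, 2 and 3, against 0.0067, 0.027 and 0.033 in wildtype 1, 2 and 3. Over the probe sets above the median level it was 0.0017, -0.027 and -0.012 in the mutant and 0.012, 0.013 and 0.012 in the wildtype samples. In both sets the 3 mutant samples lay below the 3 wildtype samples. The pooled SD within a genotype had a median of 0.080 over the 49 genes and ran from 0.032 to 0.23.

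Splicing genes outside these families were examined in 7 lists with 145 measured genes. Their median log2 difference was -0.023, with 86 below 0, or 59.3%, and 58 above. Probe sets above the median level had a median of -0.027, with 57.3% below 0. In this comparison 0 of the 145 passed (limma, smallest adjusted p = 0.122). At an unadjusted p under 0.05, limma gave 15 lower and 3 higher, or 12.4%. That is under the 14.7% of all probe sets and the 20.2% of those above the median level. The list of the U2 auxiliary factor and branch-point recognition also held helicases of other steps, such as Dhx15 and Ddx39a. Its 20 genes had a median of -0.065, and 5 were lower at an unadjusted p under 0.05, or 25%. Above the median level, 12.6% of probe sets were lower at that p, and 20.2% passed it in either direction. Dhx15, a helicase that takes spliceosomes apart, was at 7.37, 7.56 and 7.32 in the mutant samples and 7.90, 7.73 and 7.81 in the wildtype samples, a difference of -0.40 (limma, adjusted p = 0.149). Ddx39a and Ddx39b, related helicases of splicing and mRNA export, were at -0.42 and -0.29, and U2af1l4, a relative of the small U2AF subunit, at -0.17.

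Among 24 other snRNP proteins the median was -0.022 and 3 were lower at an unadjusted p under 0.05, or 12.5%. Lower at that p were 7.4% of all probe sets and 12.6% of those above the median level. Lsm11, a ring protein of the U7 particle that processes histone mRNA and not of the spliceosome, was at 6.69, 6.84 and 6.69 in the mutant samples and 7.23, 7.05 and 7.35 in the wildtype samples. Its difference of -0.47 did not pass (SE 0.092; limma, adjusted p = 0.136). Usp39 of the tri-snRNP was at -0.18, Rnpc3 of the minor spliceosome at -0.14 and Txnl4b at -0.17.

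The 30 genes of the Prp19 complex and the catalytic steps had a median of -0.023. Ctnnbl1, a component of the Prp19 complex, was at 9.32, 9.41 and 9.35 in the mutant and 9.63, 9.69 and 9.69 in the wildtype samples, a difference of -0.31 (SE 0.056; limma, adjusted p = 0.122). Cwc27 was at -0.24, the helicase Dhx16 at 0.17 and Cwc15 at 0.15. The 24 SR protein kinases and SR-related proteins had a median of -0.032. Tra2b, an SR-like regulator of exons, was at 9.47, 9.35 and 9.49 in the mutant and 9.78, 9.54 and 9.76 in the wildtype samples, a difference of -0.26 (limma, adjusted p = 0.255). Scaf11 was at -0.14, and Rnps1 and Srrm1, activators of splicing, were at 0.16 and 0.15.

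**Figure D5:**
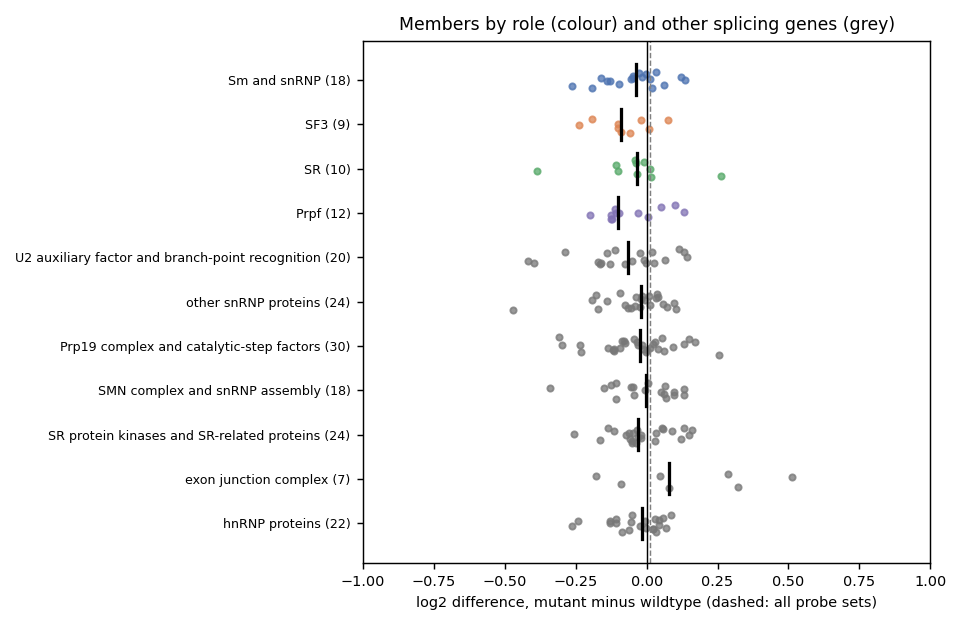
Log2 difference (mutant minus wildtype, horizontal axis) of each gene, by role for the 49 genes (coloured) and by list for 145 other splicing genes (grey), with the number of genes in parentheses and a black bar at each median. The medians lie between -0.10 for Prpf and 0.080 for the exon junction complex, and the dashed line marks the 0.010 of all probe sets.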

How the data were processed

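RNA of each pool went onto 1 array, 6 in all, with 1 colour. The authors deposited log2 levels per probe set, which the submitters' processing notes trace to RMA in Affymetrix Expression Console 1.1, a method that subtracts background, normalizes the arrays and joins probes into probe sets. Per the labels' protocols, the RNA was amplified from a small input, and this and RMA can compress differences of dim probe sets. The number of arrays limits the precision. Of 35556 probe sets, 21789 had 1 gene symbol, 1621 several and 12146 none.

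Mutant minus wildtype differences were fitted with limma 3.58.1 in R 4.3.3 (lmFit, eBayes, two-sided, no covariates) on all 23410 probe sets with a symbol. P-values were adjusted by Benjamini-Hochberg over all of them, at 0.05. Standard errors and 95% intervals are those of the fit, SD is over 3 samples. The procedure was also run on simulated data, with planted shifts larger than any difference of the 49 genes. That run does not show how often differences of the size seen here would be found. Gene identifiers of all 49 genes matched the RefSeq table of GRCm38.p6. Promoters came from RefSeq, 1 per gene, the farthest upstream. No source used here gives the array's genome build.

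The genes and the lists of other splicing genes and markers were chosen with earlier results of these data known, so no set test is given. Every member could be named. Of each list, up to 4 genes with the smallest p were named. Probe-set levels depend on the probes, so brightest and dimmest refer to signal and not to amounts of transcript.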

Additional observations from a re-analysis of the deposited data

How the results depend on the processing

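Over the 49 genes and 16 alternatives, 760 refits of a single gene moved by less than the SD between replicates, 22 moved by more, and 1 became a call (Srsf12 gave no value where probe sets under the median level were left out). Leaving out dim probe sets, the replicate block, the trend and robust settings and fitting all probe sets of the table cannot change a gene's difference. Averaging a gene's probe sets cannot change it where the gene has only 1. Part of the 760 was thus fixed in advance, and the tally is no measure of stability. The call was Srsf3 with trend and robust settings (-0.39; limma, adjusted p = 0.0476). Under those settings 76 probe sets and 1 of the 49 genes passed, and in no other refit did a member pass. The count over all probe sets was 76 at an adjusted p of 0.1 and 1 with all probe sets of the table. It was 3443 at an unadjusted p under 0.05, with 7 of the 49 genes. The samples share only a number across genotypes: same-numbered deviations correlated at -0.0015, -0.031 and 0.036, not every sample matched its own number best, and with the replicate block 1 probe set and 0 of the 49 genes passed. Leaving out 1 sample gave 1 to 18 probe sets and 0 members, and medians of -0.058 to -0.042 over the 49 genes, -0.047 to -0.014 for Sm and snRNP, -0.11 to -0.035 for SF3, -0.059 to -0.023 for SR and -0.14 to -0.031 for Prpf. Median centring moved the median of all probe sets to -0.047 and those medians to -0.11, -0.095, -0.15, -0.092 and -0.16. After quantile normalization again they were -0.024 over the 49 genes, -0.014 for Sm and snRNP, -0.045 for SF3, -0.00028 for SR and -0.055 for Prpf, and after cyclic loess -0.020 over the 49 genes, -0.0061 for Sm and snRNP, -0.057 for SF3, -0.0076 for SR and -0.078 for Prpf. The cause of these shifts was not tested. Precision is limited by 3 samples per genotype, and for Srsf12 by a signal at background.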

Other observations

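Other factors that act with the spliceosome were also measured. The 22 hnRNP proteins, which bind nascent RNA and often oppose SR proteins, had a median log2 difference of -0.015, and 0 passed (limma, smallest adjusted p = 0.222). At an unadjusted p under 0.05, 1 was lower, or 4.55%, where 7.4% of all probe sets were lower. That gene was Ptbp1, a repressor of alternative exons, at 10.22, 10.20 and 10.00 in the mutant samples and 10.45, 10.41 and 10.35 in the wildtype samples, a difference of -0.26 (SE 0.077). Hnrnpl, Hnrnpf and Hnrnpk were at -0.24, -0.13 and -0.11, each with groups that did not overlap. That held for 18.2% of the list, all lower, where 9.66% of all probe sets and 15.4% of those above the median level did not overlap and were lower.

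Of 18 genes of snRNP assembly, the median was -0.0017 and 0 passed (limma, smallest adjusted p = 0.248). At an unadjusted p under 0.05, 1 was lower, or 5.56%, where 7.4% of all probe sets were lower. Prmt5, the methyltransferase that modifies Sm proteins before assembly, was at 6.03, 6.09 and 5.85 in the mutant and 6.54, 6.24 and 6.21 in the wildtype samples, a difference of -0.34 (SE 0.11). Strap was at 0.13, Gemin6 at -0.15 and Gemin7 at -0.11. The exon junction complex marks spliced mRNA. Its list of 7 measured genes, which includes the decay factors Upf1 and Upf2, had a median of 0.080. Of the 7, 0 passed (limma, smallest adjusted p = 0.280). At an unadjusted p under 0.05, limma gave 1 higher (Sap18) and 1 lower (Upf1), or 28.6% of 7 genes. That p was reached by 14.7% of all probe sets and 20.2% of those above the median level. Sap18 was at 0.51, with both group means under the background guide of 4.48, so its level was not measured well in either genotype. Upf1, the helicase of nonsense-mediated decay, was at 8.65, 8.68 and 8.78 in the mutant and 8.94, 8.89 and 8.82 in the wildtype samples, a difference of -0.18. Its partner Upf2 was at 0.29 and Casc3 at 0.32.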
